A study of Homo sapiens with 3 samples.

Results

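Human cells read their nuclear genome with 3 multi-subunit machines, RNA polymerase I (Pol I), RNA polymerase II (Pol II) and RNA polymerase III (Pol III), and the transcripts of their subunits and of selected partner factors were followed here in PC3 prostate cancer cells in which USP16 was knocked down. The members were found by name: every gene whose symbol is POLR1, POLR2 or POLR3 followed by 1 letter, with an optional L or digit, without pseudogenes, plus CD3EAP, TWISTNB, ZNRD1, UBTF, RRN3, TAF1B, TAF1C, TAF1D, BRF1, BRF2, BDP1, GTF3A, GTF3C1, GTF3C2 and MAF1. The rule used no measured value. It found 46 of the 60930 entries of the deposited table, under 45 symbols, because POLR2J3 has 2 entries. They were divided by their place in the machines into 6 Pol I subunits, 11 Pol II subunits, 10 Pol III subunits, 2 subunits shared by Pol I and Pol III, 5 subunits shared by Pol I, Pol II and Pol III, 5 Pol I factors and 7 Pol III factors.

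PC3 is an established line of androgen-independent prostate cancer cells. USP16 is a ubiquitin-specific protease, an enzyme that removes ubiquitin from other proteins. The series holds 3 RNA-seq libraries: PC3 control cells (shCON), PC3 cells that express the hairpin shUSP16#1, and PC3 cells that express the hairpin shUSP16#2. The study cloned its short hairpin RNAs into the lentiviral vector pLKO.1 and selected stable PC3 cells with puromycin. It calls shCON a vector control and lists no control hairpin sequence. Whether the sequenced cells were selected in this way is not stated in the paper. Each condition has 1 library, so no difference below has a replicate check, no p-value is given, and the values from both hairpins share the single shCON library. The comparison asks how the 3 machines stand in cells with less USP16.

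Pol I transcribes the repeated ribosomal RNA genes in the nucleolus. Pol II makes messenger RNA and many non-coding RNAs, and Pol III makes transfer RNA, 5S ribosomal RNA and other short structural RNAs. Each has a core built around a pair of large catalytic subunits, a zinc ribbon subunit, a pair of alpha-like assembly subunits, a protruding stalk and a set of small subunits that the machines have in common. Pol I and Pol III carry further subunits that resemble general factors of Pol II. The oncoprotein c-Myc, which binds the DNA sequence known as the E-box, is known to raise transcription by each of the machines.

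The sense strands of the hairpins are shown because they define the conditions. The capitals mark the longest run that each shares with a transcript of any member.

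shUSP16#1: gccagaagaAATCATGTTTAT

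shUSP16#2: cggtgataTTCCACAAGAttt

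All 21 bases of each hairpin were found in USP16 transcripts. The longest run that shUSP16#1 shared with a member was 12 bases, in TAF1D, a subunit of the Pol I selectivity factor. A run of that length with shUSP16#1 occurred in 1.07% of the 13320 tested features with a transcript sequence. With shUSP16#2 the longest run was 10 bases, in POLR3A, the largest Pol III subunit, and 4.53% of the tested features held a run of that length. The part of these matches in the values below was not tested.

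Values are TPM, a share of the transcripts in a library that is scaled for gene length, so genes can be compared within a library. The read depth behind them is unknown, and no counting interval can be given. USP16 was at 19.92 TPM in shCON against 3.50 TPM with shUSP16#1 and 1.08 TPM with shUSP16#2, which is 17.6% and 5.42% of shCON. MYC, which encodes c-Myc, was at 238.14, 208.86 and 172.59 TPM in the same order. The epithelial markers KRT8, KRT18, EPCAM and CDH1 and the mesenchymal marker VIM were all present, from 40.48 TPM for VIM under shUSP16#2 to 947.26 TPM for KRT18 in shCON, and KLK3, a prostate gene low or lost in this line, was listed at 0. Of 5 markers of other cells, PTPRC, PECAM1, DCN and CD3E were at 1.28 TPM or lower in each library, with DCN listed at 0, and COL1A1 was at 4.19, 10.71 and 4.78 TPM.

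Changes are differences of log2(TPM + 1) from shCON, and on this scale the change of a gene at a few TPM comes out too small. The median change of the 13664 features with a mean of at least 1 TPM was −0.17 under shUSP16#1 and −0.37 under shUSP16#2. A member is therefore also described by its change relative to this median, called its relative change. Of the 46 members 45 reached the minimum, and POLR2J2 was the exception. In bulk RNA, less RNA per cell and fewer cells of a given state cannot be told apart.

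Over the whole set, 34 of 45 members were lower than shCON under both hairpins, where 57.2% of all tested features were, and 5 were higher, where 24.5% were. Relative to the median feature, 20 members were below it under both hairpins and 15 were above it, and 41.7% of all tested features were below and 41.7% above. The members were thus lower than shCON more often than all features were, while relative to the median feature their share below was near the background and their share above was under it. A level at least 2-fold below shCON under both hairpins was measured for 1 member, TAF1D, beside 4.6% of all tested features. With a pseudocount of 0.1 in place of 1 there were 4, TWISTNB, POLR3B, TAF1D and BDP1, beside 8.04% of all features. No member was at least 2-fold higher under both, beside 1.16% of all tested features. Under shUSP16#1 there were 2 members at least 2-fold lower, POLR2A and TAF1D, beside 5.81% of all features. Under shUSP16#2 there were 10, beside 19.5%. In 38 of 45 members the level was lower under shUSP16#2 than under shUSP16#1, which was so for 73.4% of all features.

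**Figure D1:**
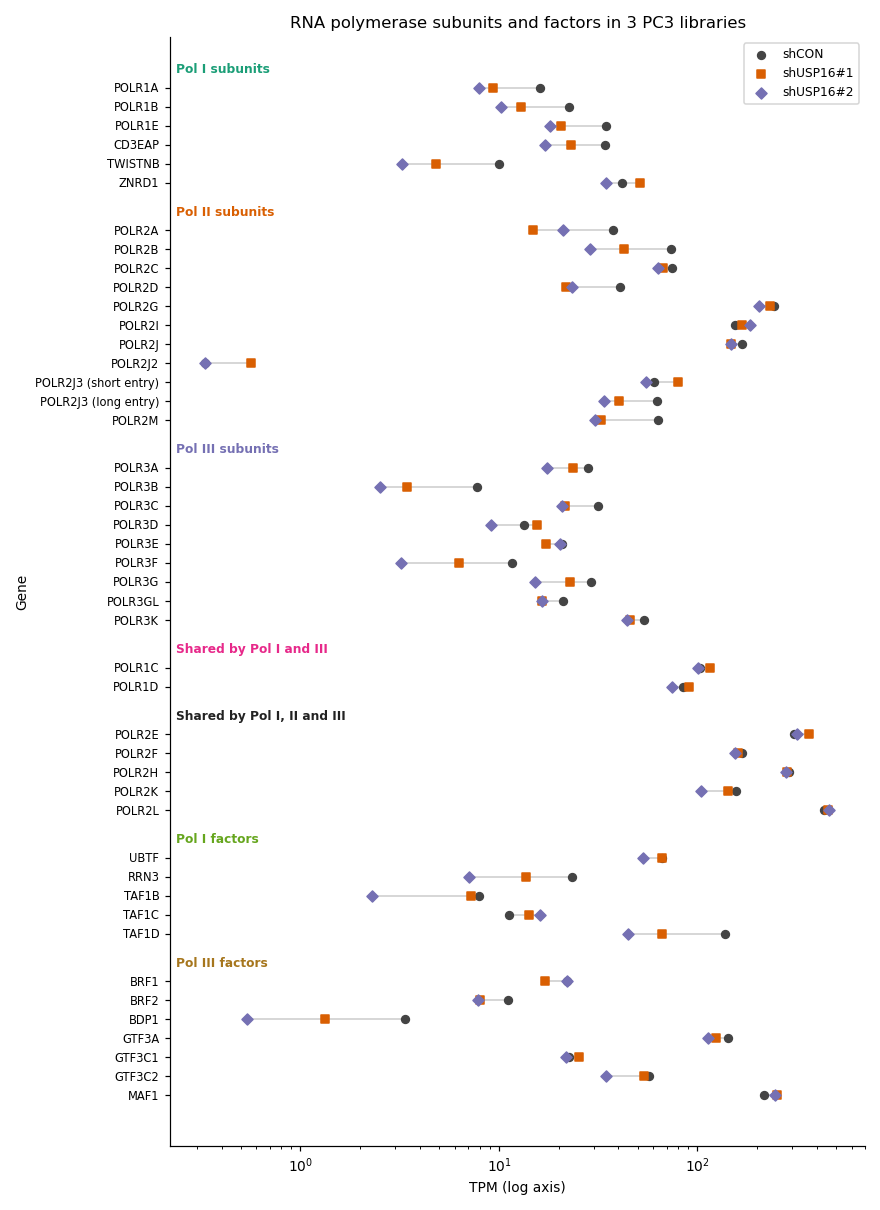
TPM (log axis) of the members named in the text in the 3 libraries, grouped by class; each symbol is 1 library and the grey line spans the 3 values. In 5 of the 6 Pol I subunits both knockdown libraries lie to the left of shCON, whereas the symbols of most shared subunits nearly overlap.

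Among the subunits that belong to a single machine, those of Pol I had the lowest median relative change. POLR1A, the largest catalytic subunit, was at 16.04 TPM in shCON against 9.31 TPM with shUSP16#1 and 7.94 TPM with shUSP16#2. Its catalytic partner POLR1B was at 22.51, 12.92 and 10.26 TPM. Both knockdown libraries were thus at 45.6% to 58.0% of shCON for the pair that forms the active site. POLR1E and CD3EAP encode a dimer that Pol I alone carries and that resembles the Pol II factor TFIIF. POLR1E was at 34.61, 20.64 and 18.01 TPM. CD3EAP was at 34.34, 23.07 and 17.09 TPM. The members of the dimer were at nearly equal levels in shCON and remained within 4 TPM of each other in the knockdown libraries. TWISTNB, a stalk subunit and the least abundant Pol I subunit, was at 10.04, 4.80 and 3.23 TPM, and its relative change of −0.76 and −1.02 was the lowest of the 6. ZNRD1, the zinc ribbon subunit that takes part in RNA cleavage, was at 41.63, 51.24 and 34.46 TPM, so that the knockdown libraries lay on either side of shCON. The median relative change of the class was −0.55 under shUSP16#1 and −0.58 under shUSP16#2, with 5 of 6 members below the median feature under both hairpins and ZNRD1 above it. Over all tested features 41.7% were below and 41.7% above, and the same shares stand beside the counts of the other classes.

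The tested Pol II members below the median feature under both hairpins were those of greater gene length. POLR2A, the largest subunit, which carries the C-terminal heptad repeats that are phosphorylated during transcription, was at 37.42 TPM in shCON against 14.79 TPM with shUSP16#1 and 21.06 TPM with shUSP16#2. It was the lowest of the 10 tested Pol II subunits in each library. Its change under shUSP16#1, −1.28, was the lowest of all 45 members there. POLR2B, the second catalytic subunit, was at 73.80, 42.68 and 28.81 TPM, so that the order of the hairpins was opposite to that of POLR2A. POLR2D, a stalk subunit, was at 40.83, 21.76 and 23.43 TPM. POLR2G, which forms the stalk with POLR2D, was at 242.99, 233.32 and 203.28 TPM. The members of the stalk thus differed in change as well as in level, with relative changes of −0.71 and −0.41 for POLR2D and of 0.11 under each hairpin for POLR2G. POLR2C and POLR2J are the alpha-like subunits on which Pol II is assembled. POLR2C was at 74.14, 66.96 and 63.03 TPM. POLR2J was at 168.12, 147.54 and 147.31 TPM. POLR2I, the zinc ribbon subunit, was at 154.48, 168.23 and 184.70 TPM and was the only subunit specific to Pol II that was higher than shCON under both hairpins.

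The remaining Pol II names are not core subunits or are copies. POLR2M encodes Gdown1, a protein that associates with Pol II, and was at 63.51, 32.49 and 30.53 TPM. POLR2J2 and POLR2J3 are near-identical copies of POLR2J on chromosome 7, among which the counting could have split reads, so their values are uncertain. POLR2J2 was at 0.33, 0.56 and 0.33 TPM. The POLR2J3 entry of 955 bases was at 60.53, 80.15 and 54.90 TPM. The POLR2J3 entry of 2096 bases was at 62.62, 40.35 and 33.97 TPM. These entries overlap in the annotation and lay on opposite sides of shCON under shUSP16#1, while their sum was 123.15 TPM in shCON against 120.50 TPM with shUSP16#1 and 88.87 TPM with shUSP16#2. The median relative change of the 10 tested Pol II members was −0.23 and −0.15, with 5 below the median feature under both hairpins and 4 above it. Without POLR2M and the POLR2J copies, the median of the 7 remaining was −0.02 and 0.11.

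Most Pol III subunits lay moderately below the median feature. POLR3A, the largest catalytic subunit, was at 28.10, 23.71 and 17.38 TPM. POLR3B, the second catalytic subunit, was at 7.73, 3.43 and 2.51 TPM, the lowest level of any Pol III subunit in each library. The ratio of POLR3B to POLR3A was 0.275 in shCON against 0.145 with shUSP16#1 and 0.144 with shUSP16#2. In Pol I the ratio of POLR1B to POLR1A was 1.40, 1.39 and 1.29, and in Pol II the ratio of POLR2B to POLR2A was 1.97, 2.89 and 1.37, so the catalytic pairs kept their proportion to different degrees.

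POLR3C, POLR3F and either POLR3G or POLR3GL form the subcomplex that opens promoters for Pol III. POLR3C was at 31.68, 21.52 and 20.80 TPM. POLR3F was at 11.64, 6.28 and 3.22 TPM, and its relative change of −0.62 and −1.21 was near that of POLR3B. POLR3G, the form typical of proliferating and undifferentiated cells, was at 29.02, 22.91 and 15.22 TPM. Its alternative POLR3GL was at 21.04, 16.54 and 16.46 TPM. POLR3G made up 58.0% of the sum of the pair in shCON, 58.1% under shUSP16#1 and 48.0% under shUSP16#2, so the balance differed in 1 of the 2 knockdown libraries. The GC content was 34.3% for POLR3G and 48.5% for POLR3GL. The relative change of POLR3G was −0.16 and −0.52. After the trend of all features with GC content was removed, it was 0.27 and 0.19, and that of POLR3GL was −0.10 and 0.08. POLR3D and POLR3E form a dimer that resembles TFIIF. POLR3D was at 13.33, 15.52 and 9.08 TPM. POLR3E was at 20.75, 17.26 and 20.35 TPM. The hairpins thus gave opposite orders for the members of this dimer. POLR3K, the zinc ribbon subunit, was at 53.67, 45.60 and 43.93 TPM. The median relative change was −0.16 and −0.18, with 6 of 10 below the median feature under both hairpins and none above it under both. CRCP, a Pol III stalk subunit whose name the rule does not match, was at 42.66, 33.94 and 28.22 TPM.

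The subunits that the machines have in common were among the most abundant members and mostly lay above the median feature. POLR1C and POLR1D are the alpha-like assembly subunits of both Pol I and Pol III. POLR1C was at 102.75, 116.24 and 100.87 TPM. POLR1D was at 84.72, 90.20 and 74.25 TPM. Of the subunits in all 3 polymerases, POLR2L was the most abundant member of the whole set, at 436.21, 455.17 and 461.38 TPM. POLR2E was at 305.77, 365.80 and 317.43 TPM, and POLR2H was at 290.88, 281.19 and 278.08 TPM. All 3 thus remained within 20% of shCON. POLR2F was at 168.00, 160.73 and 154.53 TPM, and POLR2K was at 156.66, 142.52 and 104.31 TPM. Of the 7 shared subunits none was below the median feature under both hairpins and 6 were above it under both, the exception being POLR2K, with relative changes of 0.04 and −0.21. The share of all tested features was 41.7% on each side. After the trend of all features with GC content was removed, POLR2K, with a GC content of 37.6%, was above at 0.47 and 0.46. POLR2F was then below at −0.31 and −0.35, and POLR2L at −0.08 and −0.04. As computed, without reference to the median feature, the 5 subunits in all machines had a median change of −0.05 and −0.06.

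**Figure D2:**
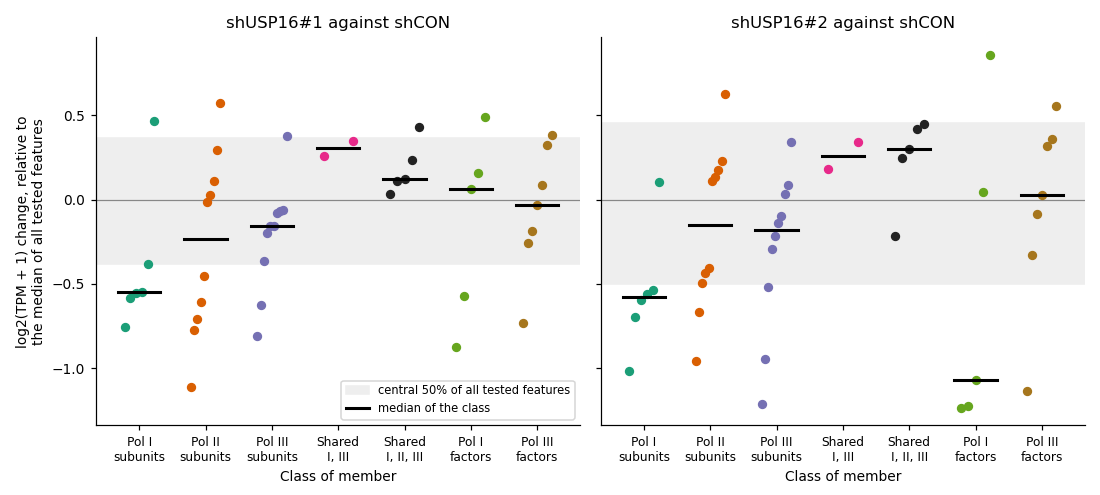
log2(TPM + 1) change relative to the median of all tested features, for shUSP16#1 (left) and shUSP16#2 (right); each point is 1 member, the black bar is the class median and the grey band holds the central 50% of the 13664 tested features. The class medians are −0.55 and −0.58 for Pol I, −0.23 and −0.15 for Pol II and −0.16 and −0.18 for Pol III subunits, and the points of the classes overlap. The band describes single features and is no yardstick for a class median.

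When equivalent parts were compared across the machines, only the catalytic subunits all lay on the same side of the median feature under both hairpins. All 6 catalytic subunits were below the median feature under both hairpins, with a median relative change of −0.59 and −0.63 and single values from −1.11 to −0.06. Over all tested features 41.7% were below and 41.7% above. Among protein-coding features of at least 4000 bases 60.8% were below, and the median length of the 6 was 5834.5 bases. Of the stalk subunits, TWISTNB and POLR2D were below under both hairpins and POLR2G was above. Of the 4 alpha-like subunits POLR1C, POLR1D, POLR2C and POLR2J, none was below under both hairpins and 3 were above. With the GC trend removed, POLR1C and POLR2C were above, POLR2J was below at −0.33 and −0.31, and POLR1D was at 0.03 and −0.18. Of the 3 zinc ribbon subunits, ZNRD1 and POLR2I were above under both, and POLR3K was at −0.06 and 0.08. With the GC trend removed this was turned over, with POLR3K above at 0.17 and 0.40, ZNRD1 at 0.37 and −0.03 and POLR2I at −0.02 and 0.13.

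The levels within each machine differed as well. The median of the Pol I subunits was 28.4 TPM in shCON against 16.8 TPM with shUSP16#1 and 13.7 TPM with shUSP16#2. For Pol II it was 68.7, 54.8 and 44.4 TPM, and for Pol III 24.6, 19.4 and 16.9 TPM. The ratio of the Pol II to the Pol I median was 2.42 in shCON against 3.27 with shUSP16#1 and 3.25 with shUSP16#2, while that of Pol II to Pol III was 2.79, 2.83 and 2.63. These ratios include POLR2M and the POLR2J3 entries, without which the Pol II median was 74.1, 67.0 and 63.0 TPM. The ratio of Pol II to Pol III was then also higher in both knockdown libraries than in shCON. The ratio of the highest to the lowest subunit was 4.15, 10.7 and 10.7 within Pol I, from ZNRD1 to TWISTNB. Within Pol III it was 6.94, 13.3 and 17.5, from POLR3K to POLR3B. In the 12-subunit core of Pol II, shared subunits included, it was 11.7, 30.8 and 21.9, from POLR2L to POLR2A. The distribution of all tested features had an interquartile range of 2.87, 2.88 and 2.98 on the log2(TPM + 1) scale. TPM measures RNA, and the amounts of the proteins were not measured here.

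The Pol I factors gave different results under the hairpins. UBTF, which binds and opens ribosomal DNA, was at 66.58, 66.05 and 53.14 TPM. RRN3, which brings Pol I to the promoter in growing cells, was at 23.45, 13.63 and 7.10 TPM. The 3 remaining members belong to SL1, the selectivity factor that recognises the ribosomal promoter. TAF1D was at 138.20, 66.49 and 44.85 TPM, with changes of −1.04 and −1.60. TAF1B was at 7.93, 7.27 and 2.30 TPM, so that its level under shUSP16#1 was near shCON and that under shUSP16#2 was the lowest of any Pol I factor. TAF1C was at 11.18, 14.21 and 16.12 TPM, higher than shCON under both hairpins, with the highest relative change of all members under shUSP16#2, 0.86. The subunits of SL1 thus spread on both sides of shCON. The GC content was 61.6% for TAF1C, 39.8% for TAF1B and 37.4% for TAF1D. After the trend of all features with GC content was removed, the change of TAF1C from shCON was −0.10 and −0.02. Its relative change was then 0.08 and 0.35, beside 0.53 and −0.35 for TAF1B and −0.44 and −0.56 for TAF1D. The median relative change of the 5 factors was 0.06 under shUSP16#1 and −1.07 under shUSP16#2, with 2 members below the median feature under both hairpins and 2 above. With the GC trend removed the median was 0.04 and −0.35, with 2 below and 1 above. TAF1D hosts small nucleolar RNAs in its transcript, and 3 of them were counted separately in the table at a mean of at least 1 TPM.

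Among the Pol III factors, BRF1, BRF2 and BDP1 are parts of TFIIIB, which positions Pol III at its genes. BRF1 was at 22.03, 17.01 and 21.90 TPM. BRF2, used at U6-type promoters, was at 11.11, 7.99 and 7.84 TPM. BDP1 was the least abundant tested member, at 3.36, 1.33 and 0.54 TPM, and the ratio of BRF1 to BDP1 was 6.56, 12.8 and 40.6. Below 1 TPM such a ratio rests on little RNA, and the depth behind it is unknown. GTF3A, the 5S gene factor TFIIIA, was at 143.35, 124.46 and 112.97 TPM. GTF3C1 and GTF3C2 belong to TFIIIC, which reads the internal promoters of transfer RNA genes. GTF3C1 was at 22.56, 25.22 and 21.73 TPM, and GTF3C2 was at 57.03, 53.63 and 34.79 TPM. MAF1, the repressor of Pol III, was at 216.38, 251.08 and 246.56 TPM, the only Pol III factor higher than shCON under both hairpins. The median relative change of the 7 was −0.03 and 0.03, with BRF2 and BDP1 below the median feature under both hairpins and GTF3C1 and MAF1 above it. After the trend of all features with GC content was removed, 5 of the 7 were below under both hairpins and none was above, with MAF1 at −0.01 and −0.04 and GTF3C1 at 0.09 and −0.04.

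The change of a member went with its length and its base composition, as it did in other genes. Of the 9 members under 1000 bases in the deposited table, none was below the median feature under both hairpins and 7 were above, and of 9 members of 1000 to 2000 bases, 1 was below and 5 were above. From 2000 to 4000 bases, 10 of 15 were below and 1 was above, and of the 12 members of at least 4000 bases, 9 were below and 2 were above. Among protein-coding features in the same 4 classes of length, 23.4%, 29.8%, 43.3% and 60.8% were below. Of the 12 members with a GC content under 45%, 10 were below and none was above, whereas of the 14 with at least 55%, 3 were below and 9 were above. Among protein-coding features 84.4% were below at a GC content under 40%, 74.9% from 40% to 45% and 10.1% at 55% or more, so the members of low GC content were near the share of other genes. The rank correlation of change with GC content across the 45 members was 0.56 and 0.73, and across 11501 protein-coding features it was 0.60 and 0.70. With length it was −0.50 and −0.48 across the members and −0.28 and −0.32 across protein-coding features. These are descriptions across genes of the same 3 libraries, and the points are not independent.

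The classes differ in both properties. The catalytic subunits had a median length of 5834.5 bases and a median GC content of 47.1%, and the 7 shared subunits had a median of 878 bases and 57.2%. After the trend of all features with GC content was removed, all 6 catalytic subunits remained below the median feature under both hairpins, with a median of −0.45 under each, and of the 7 shared subunits 2 were below and 3 were above. Under this setting 38.8% of all features were below and 38.8% above. The Pol I subunits remained 5 of 6 below, with a median of −0.47 and −0.46. The Pol III subunits were at −0.09 and −0.13, with 5 of 10 below. CD3EAP, with a GC content of 58.9%, was then the lowest Pol I subunit, at −0.65 and −1.01. POLR2A, with 56.1%, was at −1.34 and −0.75, and TAF1D, with 37.4%, was at −0.44 and −0.56 against −0.87 and −1.23 before. After the trend with length was removed instead, 40.4% of all features were below and 40.1% above. Of the 6 catalytic subunits 5 were then below and 1 was above, with a median of −0.44 and −0.30. Of the 6 Pol I subunits 5 were below, of the 10 Pol II subunits 8 and of the 10 Pol III subunits 6. The 7 shared subunits had a median of 0.02 and 0.05, with 1 below and 3 above. Whether the trends come from the cells or from the libraries cannot be told apart with 1 library per condition.

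**Figure D3:**
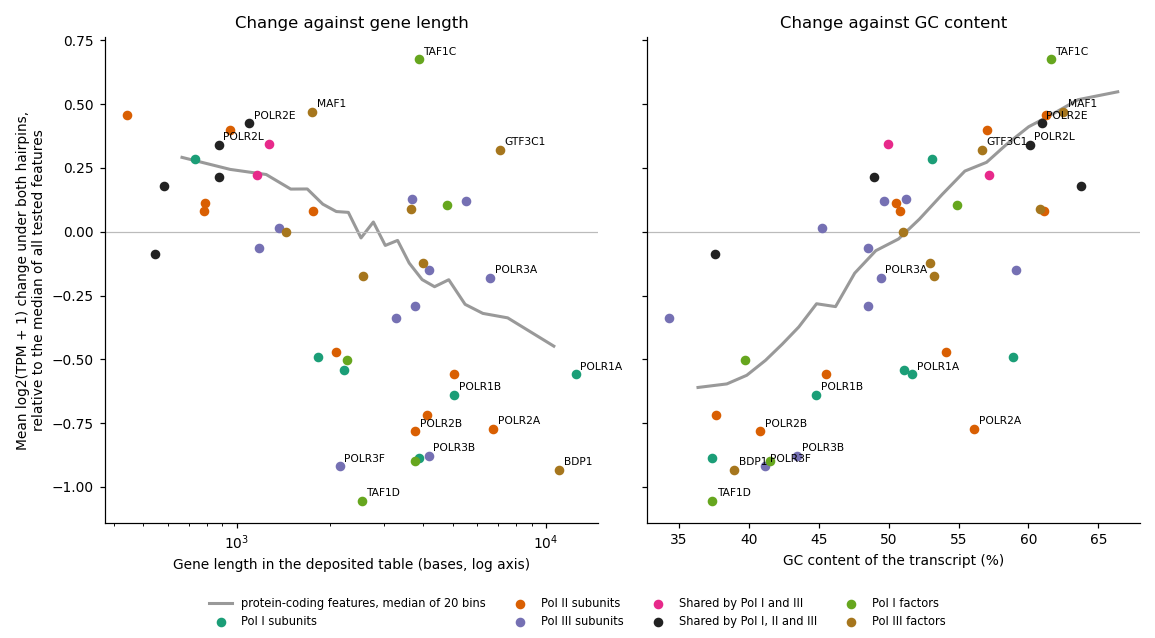
Mean relative log2(TPM + 1) change under both hairpins against gene length (left, bases, log axis) and transcript GC content (right, %); each point is 1 of the 45 tested members, coloured by class, and the grey line joins the medians of protein-coding features in 20 bins. The shared subunits, all of 1275 bases or fewer, lie toward the upper end of the line on the left, and most Pol I subunits and POLR2A lie below it.

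Overlap with other genes limits single values. Of the 46 members, 23 share exon sequence in the annotation with another gene at a mean of at least 1 TPM, 19 of them on the opposite strand. The library kit is not stated to keep strand, so reads from such a region cannot be assigned with certainty. Examples are ZNRD1 with ZNRD1ASP at a mean of 127 TPM, POLR2L with CD151 at 453.8 TPM, MAF1 with SHARPIN at 112 TPM and CD3EAP with ERCC1 at 57.6 TPM. Among the catalytic subunits this applied to POLR2B, with NOA1 at 28.1 TPM.

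Because the study concerns c-Myc, the promoters were searched for its E-box, the letters CACGTG, which read the same on both strands. In the 250 bases before the start site given by RefSeq, 4 of 34 members with a promoter sequence held it, or 11.8%, beside 11.3% of the 9522 tested genes and 7.73% of 27305 genes with such a sequence. The share among the members was near that of tested genes. The sequences around each match are given from the coding strand, GRCh38.p14, with the E-box in capitals, and CD3EAP is listed by RefSeq as POLR1G.

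CD3EAP, chr19:45406602-45406643, plus strand: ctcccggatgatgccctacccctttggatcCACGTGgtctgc

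POLR3A, chr10:78029516-78029580, minus strand: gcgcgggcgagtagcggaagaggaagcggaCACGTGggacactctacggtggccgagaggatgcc

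POLR3C, chr1:145823974-145824039, plus strand: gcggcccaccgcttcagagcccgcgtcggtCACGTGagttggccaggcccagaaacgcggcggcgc

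GTF3C2, chr2:27356832-27356897, minus strand: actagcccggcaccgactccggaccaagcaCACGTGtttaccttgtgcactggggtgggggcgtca

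The match lay 12 bases before the RefSeq start in CD3EAP, 35 in POLR3A, 103 in GTF3C2 and 196 in POLR3C. The annotation used for the exon overlaps has other starts. By it, the sequences of CD3EAP and GTF3C2 lie inside the gene, that of POLR3A spans the start and that of POLR3C lies before it. The 4 genes had relative changes from −0.38 to 0.08 under shUSP16#1 and from −0.60 to −0.22 under shUSP16#2. A match describes the letters in this window and does not show that c-Myc is bound there.

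Factors that work beside the machines were described by lists. Of 31 general factors of Pol II, 20 were below the median feature under both hairpins and 7 were above, beside 41.7% of all tested features on each side. Their median relative change was −0.34 and −0.27. Their median GC content was 44.5%, and 74.9% of protein-coding features with a GC content of 40% to 45% were below. A level at least 2-fold lower under both was measured for 1, beside 4.6% of all tested features. It was TAF2, a subunit of TFIID, at 25.49, 9.85 and 8.51 TPM. TAF1, the largest TFIID subunit, was at 11.64, 5.84 and 2.73 TPM, and TAF10, of the same complex, was at 30.40, 67.48 and 61.44 TPM. TFIID thus held both the lowest and the highest of this list. ERCC2, a helicase of TFIIH, was at 28.64, 33.40 and 29.55 TPM. Of 12 other factors of Pol I and Pol III, CRCP included, 9 were below and 2 were above, with a median of −0.32 and −0.53. Their median GC content was 44.2%, so the same share of protein-coding features applies. SNAPC1, of the complex that binds small nuclear RNA promoters, was at 66.42, 27.55 and 11.14 TPM, with changes of −1.24 and −2.47. GTF3C6, a TFIIIC subunit, was at 122.15, 60.70 and 54.91 TPM, whereas the TFIIIC subunit GTF3C5 was at 43.70, 46.18 and 47.62 TPM. SNAPC2 was at 30.73, 34.80 and 32.37 TPM.

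Transcripts that Pol III makes mostly lay on opposite sides of shCON under the hairpins. Of 20 listed entries 12 were at 0 in every library, and 7 were above 0 in all 3. All 7 were lower than shCON under shUSP16#1, and 6 of the 7 were higher than shCON under shUSP16#2. The share of all tested features with this pattern was not counted. All 7 were higher under shUSP16#2 than under shUSP16#1, whereas 73.4% of all tested features were lower there. The 7 include more than 1 entry of RMRP, and RN7SL2 beside RN7SL1, so they are not independent. BCYRN1 differed little, at 499.97, 437.79 and 529.64 TPM. RN7SK, which holds the elongation factor P-TEFb inactive, was at 248.46, 49.54 and 388.24 TPM. RN7SL1, the RNA of the signal recognition particle, which has near-identical copies that could share its reads, was at 1888, 796 and 3601 TPM. RPPH1, the RNA of ribonuclease P, was at 80.40, 31.22 and 163.33 TPM, and the RMRP entry of 264 bases was at 276.53, 19.63 and 272.64 TPM. The library shUSP16#1 was thus the lowest and shUSP16#2 in most cases the highest, while the Pol III subunits had medians below the median feature under both. For RNU6ATAC the table lists 0 in shCON beside 62.20 and 57.12 TPM in the knockdown libraries. These RNAs are short, and the recovery of short RNA by the library preparation was not tested.

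**Figure D4:**
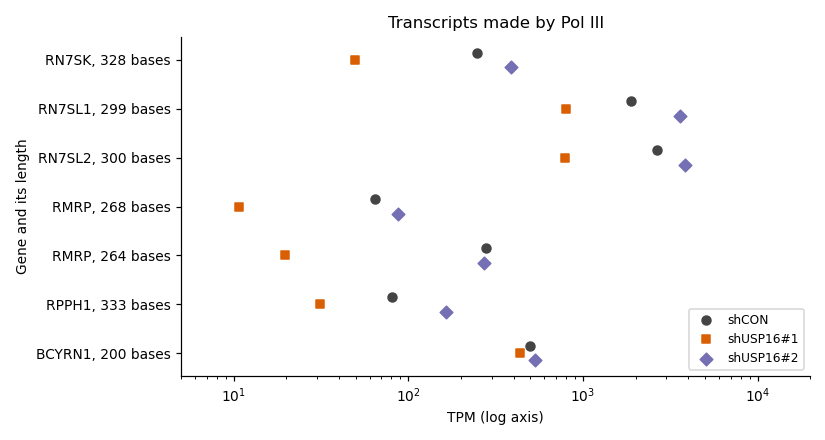
TPM (log axis) in the 3 libraries of the 7 entries for transcripts made by Pol III that were above 0 in every library, with the length of each entry; each symbol is 1 library. shUSP16#1 is the lowest in all 7 entries, and shUSP16#2 is the highest in 6 of them.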

How the data were processed

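Total RNA of 1 PC3 culture per condition was extracted with Trizol and made into libraries with an Illumina TruSeq RNA kit, and 3 libraries were sequenced by Majorbio. The authors processed the reads on the platform of that company and deposited a table of 60930 entries in TPM, written to 2 decimals. The submitters' processing notes name CASAVA, HISAT2 and the build hg19, and the quantification tool and annotation are not given in the sources used here. Of the identifiers 58516 matched GENCODE release 29, from which gene types, exon overlaps and transcript sequences were taken. TPM keeps no record of depth, so precision is unknown. The 3 repeated value columns and the functional annotation were not used.

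Entries were used by identifier. The 13664 features that averaged 1 TPM or more were tested, and changes were differences of log2(TPM + 1) from shCON, given also relative to the median feature. GC content came from the transcript nearest to the deposited length. Counts and medians are descriptions, because each condition has 1 library. The 2 POLR2J4 entries were left out as pseudogenes. Promoters came from RefSeq (GRCh38.p14), and 34 members matched. Members are named with their values, except where an item is not reported here. USP16 and MYC are named, and per other list at most 2 genes with the largest change in each direction under both hairpins, ordered by the smaller change. CRCP, the markers and the Pol III transcripts fall outside this rule or were named after their values were seen. Members and lists were chosen with earlier results of these data known. Alternatives were another pseudocount (0.1), no centring, no minimum or a minimum of 5 TPM, each hairpin alone, rescaling without short structural RNA, removal of the GC trend in 50 bins, and Pol II without POLR2M and the POLR2J copies. The length trend, protein-coding features alone and leaving out 1211 repeated names were added after seeing the data. Analyses used Python 3.11.15, pandas 2.3.3, numpy 2.4.6, scipy 1.17.1 and matplotlib 3.10.9, and the procedure was tested on simulated data.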

Additional observations from a re-analysis of the deposited data

How the results depend on the processing

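No paired analysis was possible because there is 1 library for each condition. The mean relative change under both hairpins had a class median of −0.55 for Pol I, −0.20 for Pol II, −0.16 for Pol III, −0.50 for Pol I factors and −0.0020 for Pol III factors. Under the alternatives, 54 values for the Pol I, Pol II and Pol III subunits and for the counts of members stayed near the main value. Near means within the SD between the hairpins (medians) or 1.5 times (counts). This SD was 0.014 for Pol III subunits and 0.80 for Pol I factors, so these tallies do not rank the classes by stability. No member was at least 2-fold higher in any run, and each of these counts is included as near. A further 22 lay outside this range, and 2 changed sign. Among the values for the factors and the shared subunits, 24 stayed near, 11 did not and 9 changed sign. Pol I was below 0 in every alternative run. With a pseudocount of 0.1, Pol III was at −0.14, Pol III factors turned to 0.037, and 4 members were at least 2-fold lower (8.04% of features). Without centring, Pol I, II and III were at −0.82, −0.47 and −0.43, the subunits shared by all turned to −0.057, Pol III factors were at −0.27, and 34 members were below 0 and 5 above (57.2% and 24.5% of features). Relative to the median, 0 members were at least 2-fold lower (2.01% of features). Without a minimum the medians were −0.76, −0.13 and −0.37, Pol III factors were at −0.21, and 30 of 46 members were below and 8 above (40.2% and 40.1% of features). A minimum of 5 TPM put Pol III factors at 0.025. With each hairpin alone, Pol I ranged from −0.58 to −0.55, members at least 2-fold lower from 2 to 10, Pol I factors from −1.07 to 0.061 and Pol III factors from −0.031 to 0.027. Without short structural RNA, Pol III factors were at 0.0052. With the GC trend removed, Pol I was at −0.46, Pol III at −0.070, Pol I factors at −0.047 and Pol III factors at −0.24, and 24 members were below and 8 above (38.8% of features each). With the length trend removed, Pol I was at −0.52, Pol III at −0.12, the subunits shared by all at −0.025 and Pol III factors at 0.016. Over protein-coding features the values were −0.52 for Pol I, −0.13 for Pol III and 0.031 for Pol III factors. Pol II turned to 0.081 without POLR2M and the POLR2J copies, and to 0.081 with repeated names left out, where the long POLR2J3 entry is lost. The 10 tested Pol II members formed a lower group, up to −0.47 for the long POLR2J3 entry, and an upper group, from 0.081 for POLR2J. The Pol II median lay between these groups, so its sign depends on which members are counted. The causes of the other differences were not tested.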

Other observations

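The polymerase of mitochondria, a single-subunit enzyme unrelated to the nuclear machines, and its partners gave values on both sides of shCON. POLRMT, the enzyme itself, was at 28.85 TPM in shCON against 37.89 TPM with shUSP16#1 and 39.39 TPM with shUSP16#2. TFAM, which packages mitochondrial DNA and bends its promoters, was at 55.66, 23.47 and 15.93 TPM, and TFB2M, which opens those promoters, was at 59.97, 27.53 and 19.45 TPM. The enzyme was thus higher in both knockdown libraries and these partners were lower, and 2 of the 4 listed genes were at least 2-fold lower under both hairpins, beside 4.6% of all tested features.

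Factors that pause and release Pol II lay on both sides of the median feature. Of 10 listed genes, 6 were above the median feature under both hairpins and 4 were below, beside 41.7% of all tested features on each side. NELFB and NELFA, of the pausing complex NELF, were at 41.75, 52.15 and 46.61 TPM and at 8.91, 9.74 and 10.01 TPM, whereas NELFCD of the same complex was at 95.25, 50.93 and 67.00 TPM. CCNT2 and CCNT1, the cyclins of P-TEFb, which releases paused Pol II, were at 8.18, 2.89 and 3.73 TPM and at 9.29, 4.36 and 3.33 TPM, and their kinase CDK9 was at 42.71, 43.85 and 41.32 TPM. NELFCD and CDK9 were added after their values were seen. Of 13 genes for assembly of the polymerases in the cytoplasm, 5 were below and 5 above. RPAP3 was at 16.00, 7.40 and 5.45 TPM and GPN3 at 40.91, 22.94 and 18.97 TPM. PIH1D1, which works in the same R2TP complex as RPAP3, was at 120.70, 166.45 and 170.29 TPM, and UXT was at 111.28, 128.98 and 123.34 TPM. As in the machines themselves, partners in 1 complex differed in the direction of their change, and these lists were chosen with results of the same libraries known. The GC content ran from 38.4% to 66.3% in the mitochondrial list. It ran from 37.0% to 64.4% in the pausing list and from 35.7% to 60.3% in the assembly list. The part of the GC trend in these differences was not tested.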
